A study of Mus musculus with 12 samples.

Results

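A set of 10 genes of transforming growth factor beta (TGF-beta) signalling was followed in cultured neonatal mouse cardiomyocytes: the ligands Tgfb1, Tgfb2 and Tgfb3, the latency protein Ltbp1, the receptors Tgfbr1, Tgfbr2 and Tgfbr3, and the Smads Smad2, Smad3 and Smad7. The 10 genes were taken by name from a table of 55416 genes, and their symbols were matched through Ensembl identifiers. The study sequenced polyadenylated RNA from 12 libraries, with 4 groups of 3. Cells received PBS or phenylephrine (PE), a hypertrophic stimulus acting through alpha1-adrenergic receptors, and PE was given for 24 hours. Each treatment was combined with a GapmeR, a synthetic antisense strand that leads RNase H to cut the RNA it pairs with. The GapmeR was a negative control ("control cells" here) or was directed at lincRNA-p21, a p53-responsive long noncoding RNA ("knockdown cells"). The 4 groups were thus PBS control, PE control, PBS knockdown and PE knockdown, and every group received a GapmeR. The GapmeR leaves the lincRNA-p21 gene in place, and the labels do not give the strain, the doses or the purity of the cultures.

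TGF-beta ligands are made as precursors and are secreted bound to their own propeptide, which in turn is linked to a latent TGF-beta binding protein such as Ltbp1 and held in the matrix. Once released, a ligand dimer binds Tgfbr2, a receptor kinase that phosphorylates and switches on Tgfbr1, and Tgfbr1 phosphorylates Smad2 and Smad3, which enter the nucleus with Smad4. Tgfbr3 (betaglycan) is a coreceptor that presents ligand, above all TGF-beta2, to Tgfbr2. Smad7 is an inhibitory Smad that blocks the activated receptor and is itself a known target of the pathway. In the heart the pathway is known for fibroblast activation and matrix production, and it also acts on cardiomyocytes.

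The targeted RNA was lower with its GapmeR in every library. Trp53cor1 (lincRNA-p21, ENSMUSG00000085912.3) had normalised read counts of 59.8 to 70.6 in PBS control and 10.1 to 22.6 in PBS knockdown, and of 34.0 to 56.0 in PE control and 8.56 to 9.97 in PE knockdown. An antisense gene, AC167363.1, overlaps 1645 of its exonic bases, and the labels do not say whether counting used strand. Libraries held 21325485 to 22139681 reads in genes, with 4.33% to 10.7% from mitochondrial genes, and the 10 genes had 299 to 3229 reads each per library. An earlier analysis of these data had found 3 libraries far from their groups, which are called the 3 distant libraries: replicate 2 of PBS control, replicate 2 of PBS knockdown and replicate 1 of PE knockdown. Their root mean square log2 distances from the other libraries of their group, over 12113 genes, were 0.262, 0.373 and 0.284, against 0.153 to 0.271 in the others, where the highest was PBS knockdown replicate 1. All markers of cardiomyocytes were present, at a summed count of 517751 to 1133401, and so were all markers of fibroblasts, endothelial cells, smooth muscle cells and pericytes, leukocytes, epicardial cells and Schwann cells, so transcripts typical of other cell types were measured too. In such bulk RNA, fewer cells of a type and less RNA per cell cannot be told apart.

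All 10 genes were expressed in all 12 libraries and all 10 passed the filter on low values. Differences were tested with limma on log2(normalised read count + 1) over 21799 genes, and a gene is said to be called, or to have risen or fallen, where the adjusted p was at most 0.05. Errors of log2 changes are limma standard errors, and other errors are SD over 3 libraries. The labels do not say that replicates came from separate cultures or animals, so p-values measure the spread between these libraries. The 3 distant libraries were picked for their distance in these same data. Leaving them out raised calls over all genes, from 2553 to 4672 for the knockdown in PE and from 997 to 1865 for that in PBS.

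In control cells PE changed 5 of the 10 genes. Tgfb2, Tgfb3 and Smad7 rose, and Tgfbr2 and Tgfbr3 fell. Of all genes tested, 12.6% were called higher and 12.8% lower. In knockdown cells PE also changed 5 genes: Tgfb2 and Smad7 rose and Tgfbr2, Tgfbr3 and Ltbp1 fell, where 13.4% of all genes were called higher and 14% lower. The knockdown in PE lowered 3 of the 10 genes, Tgfb3, Ltbp1 and Tgfbr3, and raised 0, against 7.14% of all genes called lower and 4.57% called higher. All genes tested include low ones. Among genes with a mean count of at least 50, it lowered 42.9% of those spanning at least 100 kb and 6.78% of shorter ones. In that comparison 6 of the 10 passed an unadjusted p of 0.05 in either direction, as did 5088 of all 21799 genes. DESeq2 also lowered Smad3 there and raised 0. The knockdown in PBS lowered 2, Tgfb3 and Ltbp1, and raised 0, against 3.21% of all genes called lower and 1.36% called higher. Of the same classes of gene span it lowered 21.4% and 2.68%. Of the 10, 5 passed an unadjusted p of 0.05 in PBS, as did 3819 of all 21799 genes. DESeq2 lowered 3 and raised 1, Smad7, and it called 1448 genes in all, against 997 in limma. For the interaction, the difference between the PE effects in knockdown and control cells, limma called 0 of the 10 genes and 0.055% of all genes. At an unadjusted p of 0.05, 3 of the 10 passed, as did 2143 of all 21799 genes. DESeq2 called the interaction for 1 of the 10, Tgfb3, and for 124 genes in all, against 12 in limma. The comparisons share groups of libraries, so they are not independent of each other.

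**Figure D1:**
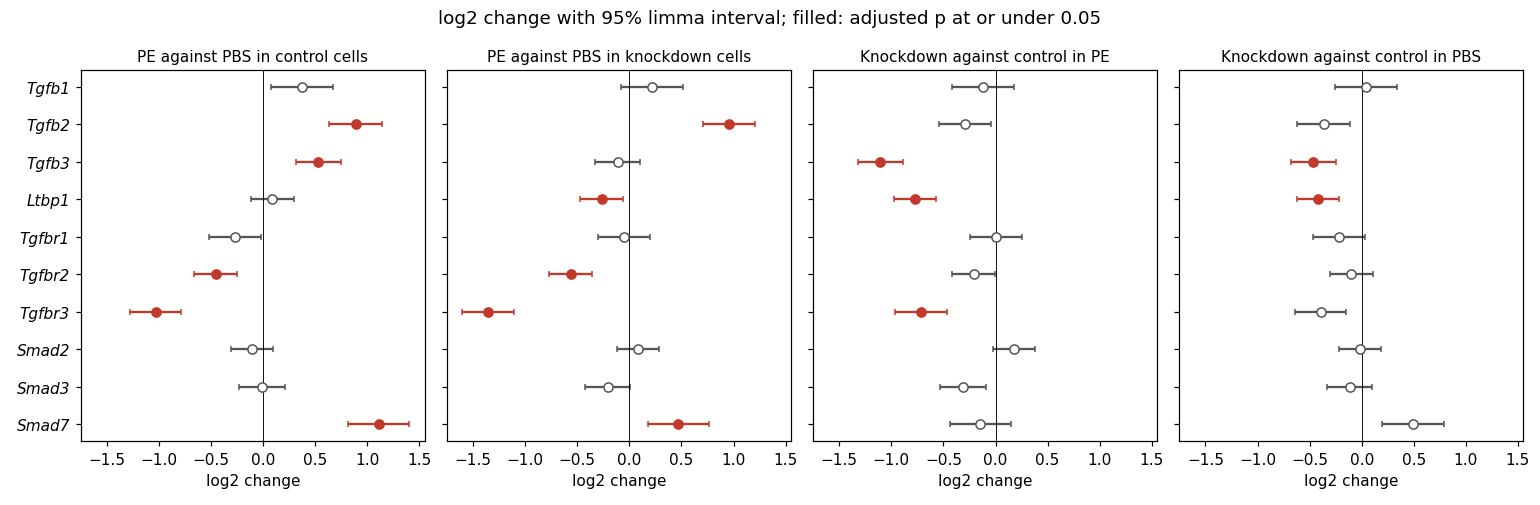
The log2 change of each gene (x axis) in 4 comparisons, with the 95% limma interval and filled points where the adjusted p was at most 0.05. Tgfb2 and Smad7 lie to the right and Tgfbr2 and Tgfbr3 to the left in both PE comparisons, and Tgfb3, Ltbp1 and Tgfbr3 lie to the left for the knockdown in PE.

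The median log2 change of the 10 genes was 0.04 for PE in control cells, -0.08 for PE in knockdown cells, -0.25 for the knockdown in PE and -0.17 for the knockdown in PBS. Over all genes tested the medians were -0.0046, 0.0048, 0.013 and 0.0013. Scaling the libraries to the same total moved the median of 12113 well-expressed genes from 0.011 to -0.15 for PE in control cells and from -0.0037 to -0.15 for PE in knockdown cells. It moved them from -0.0042 to 0.080 for the knockdown in PE and from 0.0083 to 0.075 for that in PBS. On that scale the 10 genes had 3 higher and 3 lower for PE in control cells and 1 higher and 4 lower for PE in knockdown cells. For the knockdown in PBS the split became 1 higher and 2 lower.

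Among the ligands, Tgfb3 (ENSMUSG00000021253.8, GRCm38 chromosome 12, 86056745 to 86079041, minus strand) changed most with the knockdown. Tgfb3 counts were 1985, 2391 and 2011 in PBS control and 2978, 3295 and 2926.5 in PE control. In knockdown cells Tgfb3 counts were 1465, 1523 and 1629 in PBS and 1581, 1366 and 1331 in PE. All 3 PE control libraries were above all others, and all knockdown libraries were below all control libraries, while the PBS and PE libraries of knockdown cells overlapped. In control cells PE raised Tgfb3 from 2129 ± 227 to 3066 ± 199.8, by 44.0% and by 0.53 ± 0.10 on the log2 scale (limma, adjusted p = 0.000618). In knockdown cells the means were 1539 ± 83.1 in PBS and 1426 ± 135 in PE, a log2 difference of -0.11 ± 0.10 (limma, adjusted p = 0.463). With the knockdown Tgfb3 fell by 53.5% in PE, with a log2 change of -1.11 ± 0.10 (limma, adjusted p = 4.37e-07). In PBS Tgfb3 fell by 27.7%, with a log2 change of -0.46 ± 0.10 (limma, adjusted p = 0.0108). This call was lost without PBS control replicate 2 or with only the 6 PBS libraries fitted, with an adjusted p of up to 0.0684 in limma.

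The PE effect on Tgfb3 differed between knockdown and control cells by -0.64 ± 0.14 on the log2 scale, with a 95% interval of -0.94 to -0.34 and an adjusted p of 0.125 in limma (unadjusted p = 0.000277). With DESeq2 the same difference was -0.64 (adjusted p = 0.0132). Without the 3 distant libraries it was -0.81 in limma (adjusted p = 0.000532), and with any single library left out it was not called. The interaction was therefore called for Tgfb3 in 2 of 22 alternatives, and adjusted p over them ran from 0.000532 to 0.416.

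Tgfb2 (ENSMUSG00000039239.15, chromosome 1, 186622792 to 186705989, minus strand) rose with PE under both GapmeRs. Tgfb2 counts were 1650.0, 1986 and 1666 in PBS control and 3138, 3136 and 3505 in PE control. In knockdown cells they were 1364, 1321 and 1414 in PBS and 3323, 2411 and 2333 in PE. Every PE library was above every PBS library, and PE knockdown replicate 1 stood well above the other PE knockdown libraries. PE raised Tgfb2 by 84.4% in control cells, a log2 change of 0.89 ± 0.12 (limma, adjusted p = 1.52e-05). In knockdown cells PE raised Tgfb2 by 96.8%, a log2 change of 0.96 ± 0.12 (limma, adjusted p = 6.09e-06). The knockdown was not called for Tgfb2, at -0.29 ± 0.12 in PE and -0.37 ± 0.12 in PBS on the log2 scale (limma, adjusted p = 0.133 and 0.0974). Without PE knockdown replicate 1 both were called, and without the 3 distant libraries Tgfb2 was called lower at -0.46 in PE (limma, adjusted p = 4.19e-05) and at -0.26 in PBS (adjusted p = 0.0463).

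Tgfb1 (ENSMUSG00000002603.16, chromosome 7, 25687002 to 25705077, plus strand), the ligand known above all from immune and fibrotic responses, was called in none of the comparisons. Tgfb1 counts were 1619, 2097 and 1652 in PBS control and 2409, 2207 and 2284 in PE control. In knockdown cells they were 1649, 2280 and 1614 in PBS and 2597, 1978 and 1847.5 in PE. In control cells all PE libraries were above all PBS libraries, and in knockdown cells they overlapped. Each of the 3 distant libraries was the highest of its group for Tgfb1. For PE in control cells the log2 difference of Tgfb1 was 0.37 ± 0.14 (limma, adjusted p = 0.0624), and it was 0.49 without the 3 distant libraries (adjusted p = 5.95e-06). In knockdown cells it was 0.21 ± 0.14 (limma, adjusted p = 0.293), and 0.23 without those libraries (adjusted p = 0.0307). For the knockdown it was -0.12 ± 0.14 in PE (limma, adjusted p = 0.695), with a 95% interval of -0.42 to 0.18. Without the 3 distant libraries the knockdown in PE was called lower for Tgfb1, at -0.27 (limma, adjusted p = 0.00877), where calls over all genes also grew.

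Per kb of exon, which lets genes be compared, Tgfb3 was the highest of the 10 genes in PBS control, with 629 ± 67.1 normalised counts per kb, 355 ± 53.0 for Tgfb1 and 305 ± 32.7 for Tgfb2. In PE control the levels per kb were 906 ± 59.1 for Tgfb3, 563 ± 36.7 for Tgfb2 and 456 ± 20.2 for Tgfb1, with no overlap between neighbours. In PE knockdown the levels per kb were 402.8 to 574 for Tgfb2, 366 to 515 for Tgfb1 and 393.5 to 467 for Tgfb3, so the 3 ligands overlapped. Tgfb3 thus held 48.2% to 49.2% of the sum of the 3 ligands per kb in PBS control libraries and 45.0% to 49.9% in PE control. It held 39.8% to 46.0% of that sum in PBS knockdown and 30.0% to 33.8% in PE knockdown. In PE knockdown libraries Tgfb1 held 31.5% to 33.1% and Tgfb2 34.4% to 36.9% of the sum. The sum of the ligands per kb was 1289 ± 153 in PBS control, 1925 ± 26.8 in PE control, 1057 ± 68.1 in PBS knockdown and 1310.4 ± 214 in PE knockdown. These are levels of RNA and depend on the exon lengths of the annotation.

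**Figure D2:**
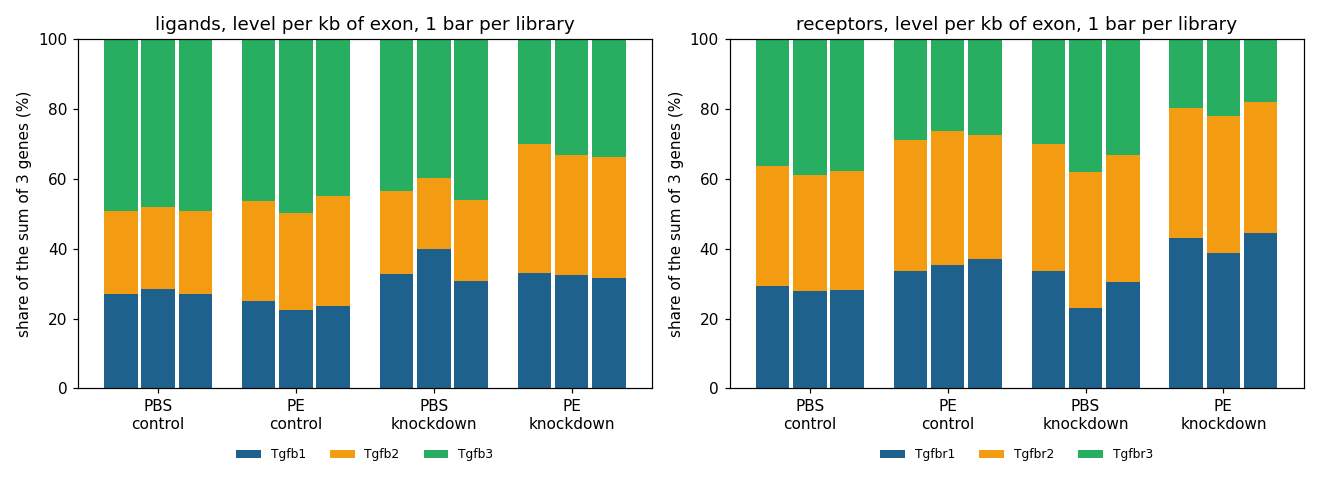
Share of each gene in the summed level per kb of exon (y axis, %) for the 3 ligands and the 3 receptors, with 1 bar per library in 4 groups. Tgfb3 held 45.0% to 49.9% of the ligand sum in PE control and 30.0% to 33.8% in PE knockdown, and Tgfbr3 was the smallest share of the receptors in both PE groups.

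Ltbp1 (ENSMUSG00000001870.17, chromosome 17, 75005568 to 75392512, plus strand), which ties latent TGF-beta to the matrix, was lower in knockdown cells under both treatments. Ltbp1 counts were 1479, 1493 and 1449 in PBS control and 1604, 1550.4 and 1544 in PE control. In knockdown cells they were 1017, 1256 and 1049.7 in PBS and 986, 880.2 and 888.5 in PE. All 6 knockdown libraries were below all 6 control libraries. With the knockdown Ltbp1 fell by 41.4% in PE, a log2 change of -0.77 ± 0.10 (limma, adjusted p = 1.81e-05). In PBS Ltbp1 fell by 24.8%, a log2 change of -0.42 ± 0.10 (limma, adjusted p = 0.0153). The call in PBS was lost with only the PBS libraries fitted and when PBS control replicate 1, 2 or 3 or PBS knockdown replicate 1 or 3 was left out, with adjusted p up to 0.0993 in limma, and the call in PE held in all 23 alternatives. In control cells PE gave Ltbp1 a log2 difference of 0.09 ± 0.10 (limma, adjusted p = 0.57). With PE in knockdown cells Ltbp1 fell by 17.1%, a log2 change of -0.27 ± 0.10 at an adjusted p of 0.0481 in limma, and this call held in 8 of 23 alternatives. The interaction for Ltbp1 was -0.35 ± 0.14 on the log2 scale (limma, adjusted p = 0.412).

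Ltbp1 spans 386.9 kb of the genome, the longest of the 10 genes, followed by Tgfbr3 with 183.1 kb and Smad3 with 111.2 kb, while Tgfb3 spans 22.3 kb. Among genes with a mean count of at least 50, the knockdown in PE lowered 42.9% of the 1702 genes spanning at least 100 kb and 6.78% of the 10395 shorter genes. The median log2 changes of these classes were -0.33 and 0.03. In PBS it lowered 21.4% and 2.68%, with medians of -0.19 and 0.04. Gene length thus moved with the lower values of Ltbp1 and Tgfbr3, and its part in them was not tested. Ltbp1 is known to be made in a long and a short form from separate starts, and the gene counts do not separate them.

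The DNA just upstream of 5 starts is shown because these genes differed in their responses: Tgfb2 rose with PE, Tgfbr2 fell, Tgfb1 was not called, and Ltbp1 was lower in knockdown cells. Each window holds the 250 bases before a RefSeq start (GRCm38.p6), 5′ to 3′ on the gene's strand, in lower case with matches in capitals. The motifs searched on both strands were TGANTCA (AP-1 site), CAGAC (the Smad CAGA box) and GGGCGG (GC box), and no match of one overlapped another in the windows printed. The windows are chr1:186705990-186706239 (Tgfb2, minus strand), chr7:25686752-25687001 (Tgfb1, plus strand), chr9:116175364-116175613 (Tgfbr2, minus strand), and chr17:75005279-75005528 and chr17:75178531-75178780 (the first and the second start of Ltbp1, plus strand).
Tgfb2: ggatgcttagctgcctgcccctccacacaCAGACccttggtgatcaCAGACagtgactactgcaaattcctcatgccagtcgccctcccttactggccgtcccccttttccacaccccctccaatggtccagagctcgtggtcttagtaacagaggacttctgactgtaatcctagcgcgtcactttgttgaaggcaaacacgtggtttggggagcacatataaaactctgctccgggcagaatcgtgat
Tgfb1: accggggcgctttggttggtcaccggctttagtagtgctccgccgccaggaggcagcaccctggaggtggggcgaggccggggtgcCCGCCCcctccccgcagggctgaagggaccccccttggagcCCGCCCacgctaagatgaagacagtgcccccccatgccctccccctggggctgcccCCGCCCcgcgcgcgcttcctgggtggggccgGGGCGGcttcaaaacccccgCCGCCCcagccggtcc
Tgfbr2: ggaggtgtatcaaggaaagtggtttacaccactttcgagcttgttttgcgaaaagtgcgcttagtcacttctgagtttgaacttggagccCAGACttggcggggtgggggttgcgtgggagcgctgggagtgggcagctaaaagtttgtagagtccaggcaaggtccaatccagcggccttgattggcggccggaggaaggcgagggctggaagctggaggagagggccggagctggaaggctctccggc
Ltbp1 first start: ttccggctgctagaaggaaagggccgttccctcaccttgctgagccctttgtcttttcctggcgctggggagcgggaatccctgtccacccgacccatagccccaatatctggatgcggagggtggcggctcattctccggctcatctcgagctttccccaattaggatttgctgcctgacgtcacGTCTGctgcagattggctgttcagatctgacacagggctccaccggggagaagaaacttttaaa
Ltbp1 second start: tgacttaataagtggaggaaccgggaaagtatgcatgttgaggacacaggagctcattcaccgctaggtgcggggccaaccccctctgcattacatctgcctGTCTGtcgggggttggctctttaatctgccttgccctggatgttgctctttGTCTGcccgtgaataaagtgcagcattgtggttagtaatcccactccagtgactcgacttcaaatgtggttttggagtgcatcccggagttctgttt
The Tgfb2 window held 2 CAGA boxes, whose first base lay 221 and 204 bases before the start, and no GC box. The Tgfb1 window held 5 GC boxes, 164, 123, 67, 36 and 16 bases before the start, no CAGA box, and 75.2% G or C against 53.6% in Tgfb2. Tgfbr2 had 1 CAGA box at 160 bases, the first Ltbp1 start had 1 at 64 bases and the second had 2 at 148 and 97 bases. A short stretch just after each start was also looked for in the transcripts of GENCODE release M21. It was found for the other starts but for neither Ltbp1 start, so the Ltbp1 distances refer to RefSeq starts only. AP-1 sites matched in none of the 8 windows of the 6 genes searched (Tgfb1, Tgfb2, Tgfbr1, Tgfbr2, Smad3 and Ltbp1). The RefSeq set held no window for Tgfb3 or Tgfbr3, so none is shown for them. Among all 32851 windows of this length, 6.75% held an AP-1 match, 42.2% a CAGA box and 32.7% a GC box, so a CAGA box is a common match. A match describes letters only.

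Among the receptors, Tgfbr3 (ENSMUSG00000029287.15, chromosome 5, 107106570 to 107289629, minus strand) was the most changed. Tgfbr3 counts were 1071, 1045 and 1139 in PBS control and 548, 503 and 538 in PE control. In knockdown cells they were 689, 984 and 829.7 in PBS and 320.1, 343 and 304 in PE. The 4 groups did not overlap and ran in the order PBS control, PBS knockdown, PE control and PE knockdown from high to low. With PE Tgfbr3 fell by 51.2% in control cells, a log2 change of -1.03 ± 0.12 (limma, adjusted p = 1.66e-06). In knockdown cells Tgfbr3 fell by 61.4%, a log2 change of -1.36 ± 0.12 (limma, adjusted p = 5.84e-08). With the knockdown Tgfbr3 fell by 39.2% in PE, a log2 change of -0.72 ± 0.12 (limma, adjusted p = 0.000321). In PBS the difference was -0.39 ± 0.12 on the log2 scale (limma, adjusted p = 0.0636), and it was called lower in 4 of 23 alternatives, among them without PBS knockdown replicate 2, with values over all alternatives of -0.55 to -0.26. The interaction for Tgfbr3 was -0.32 ± 0.17 (limma, adjusted p = 0.544).

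Tgfbr2 (ENSMUSG00000032440.14, chromosome 9, 116084293 to 116175360, minus strand), the receptor that binds ligand first, fell with PE under both GapmeRs. Tgfbr2 counts were 1267, 1110.5 and 1295 in PBS control and 895, 909.6 and 867 in PE control. In knockdown cells they were 1036, 1253 and 1139 in PBS and 759, 760.5 and 793 in PE. Every PE library was below every PBS library. With PE Tgfbr2 fell by 27.2% in control cells, a log2 change of -0.46 ± 0.10 (limma, adjusted p = 0.00169). In knockdown cells Tgfbr2 fell by 32.5%, a log2 change of -0.56 ± 0.10 (limma, adjusted p = 0.000215). The knockdown was not called for Tgfbr2, at -0.21 ± 0.10 in PE and -0.10 ± 0.10 in PBS (limma, adjusted p = 0.206 and 0.659), although all PE knockdown libraries were below all PE control libraries.

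Tgfbr1 (ENSMUSG00000007613.16, chromosome 4, 47353222 to 47414931, plus strand), the kinase that phosphorylates Smad2 and Smad3, was called in none of the comparisons. Tgfbr1 counts ran from 747.5 to 859.6 in PBS control, from 638 to 727 in PE control, from 595 to 769 in PBS knockdown and from 599 to 745.5 in PE knockdown. In control cells all PE libraries were below all PBS libraries, with a log2 difference of -0.27 ± 0.12 (limma, adjusted p = 0.109). Tgfbr1 was called lower there in 4 of 23 alternatives. Among them were the scale of equal totals (-0.43, limma, adjusted p = 0.0148) and the 3 distant libraries left out (-0.33, adjusted p = 0.00618). In knockdown cells the PE difference of Tgfbr1 was -0.05 ± 0.12 (limma, adjusted p = 0.805). Within PE the knockdown differed from the control by 0.0026 on the log2 scale, with a 95% interval of -0.25 to 0.25.

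Per kb of exon the 3 receptors together had 440.5 ± 27.3 normalised counts in PBS control, 293.5 ± 5.18 in PE control, 375 ± 23.2 in PBS knockdown and 248 ± 10.2 in PE knockdown. Tgfbr3 was the highest receptor in PBS control, with 166 ± 7.43 per kb, above Tgfbr2 with 149.5 ± 12.1 and Tgfbr1 with 125 ± 9.39. In PE knockdown Tgfbr3 was the lowest of all 10 genes, with 49.2 ± 3.00 per kb, and Tgfbr1 was at 104 ± 11.5 and Tgfbr2 at 94.2 ± 2.36. The share of Tgfbr3 in the receptor sum was 37.7% ± 1.30 in PBS control and 19.9% ± 2.05 in PE knockdown. The share of Tgfbr1 was 28.4% ± 0.725 and 42.0% ± 2.95 in the same groups. The ligand sum was thus higher and the receptor sum lower in PE control than in PBS control, in all libraries.

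Markers of cardiomyocytes and of other cells moved with these differences. Of 8 cardiomyocyte markers, 2 rose and 1 fell with PE in control cells and 2 rose and 2 fell in knockdown cells. The knockdown lowered 1 of them in PE and 0 in PBS and raised 0, with medians of -0.32 and -0.28 on the log2 scale. Their summed counts were 631098 to 719317 in PBS control and 830230 to 1133401 in PE control. In knockdown cells they were 517751 to 572655 in PBS and 670971 to 780357 in PE. Of 10 fibroblast markers, 0 rose and 8 fell with PE in control cells and 0 rose and 9 fell in knockdown cells, while the knockdown lowered 2 in PE and 1 in PBS. Their summed counts were 58900 to 62704 in PBS control, 40446 to 43937 in PE control, 52211 to 63700 in PBS knockdown and 32945 to 36572 in PE knockdown. Of 8 endothelial markers, 7 rose and 1 fell with PE under either GapmeR, with sums of 2205 to 2418 in PBS control, 5870 to 6347 in PE control, 2223 to 2233 in PBS knockdown and 4984 to 5849 in PE knockdown. Of 8 markers of smooth muscle cells and pericytes, 3 rose and 4 fell with PE in control cells and 3 rose and 5 fell in knockdown cells, with sums of 25721 to 29819, 54623 to 56318, 21497 to 23472 and 39368 to 42854 in the same order of groups. The median log2 changes of these 8 with PE were -0.79 and -1.16, and Acta2 alone had a mean count of 29387 over all libraries. Of 8 leukocyte markers, 5 rose with PE in control cells and 6 in knockdown cells, and 0 fell, with sums of 2492 to 3136, 3312.5 to 3858, 2419 to 2592 and 3166 to 3753. Of 6 epicardial markers, 1 rose and 1 fell with PE in control cells and 1 rose and 4 fell in knockdown cells, with sums of 5623 to 6245, 5301 to 5452, 6271 to 6914 and 4791 to 4881. Of 4 Schwann cell markers, 1 rose and 2 fell with PE in control cells and 0 rose and 1 fell in knockdown cells. The knockdown in PE also lowered 2 of the 8 endothelial markers and 2 of the 8 of smooth muscle cells and pericytes, and the knockdown in PBS raised 1 of the 8 leukocyte markers, while limma called no other marker of these lists in the knockdown comparisons. No marker of these lists was at 0 in all 12 libraries. Shares of all genes called were 12.6% higher and 12.8% lower for PE in control cells, and 13.4% and 14% in knockdown cells. For the knockdown they were 4.57% higher and 7.14% lower in PE, and 1.36% and 3.21% in PBS. The part of these cell types in the values of Tgfbr2, Tgfbr3, Tgfb2, Smad7, Tgfb3 and Ltbp1 was not tested.

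**Figure D3:**
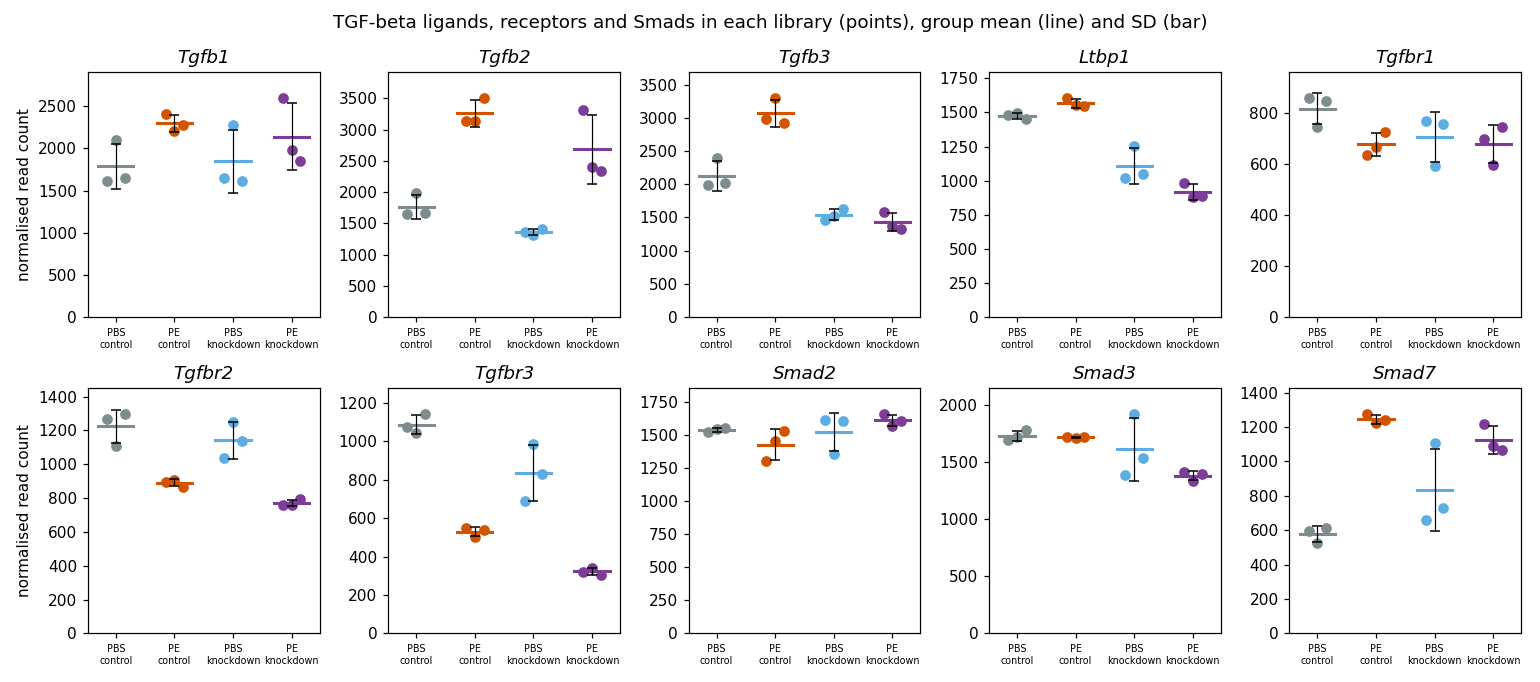
Normalised read count (y axis) of the 10 genes in each library, with 1 point per library, a line at the mean and a bar of 1 SD, in 4 groups. Tgfb3 was at 2926.5 to 3295 in PE control and at 1331 to 1581 in PE knockdown, and Tgfbr3 fell from 1045 to 1139 in PBS control to 304 to 343 in PE knockdown.

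Smad7 (ENSMUSG00000025880.12, chromosome 18, 75367529 to 75395935, plus strand), the inhibitory Smad, had the largest rise of the 10 genes with PE in control cells. Smad7 counts were 597, 527 and 611 in PBS control and 1273, 1222 and 1238.5 in PE control. In knockdown cells they were 662, 1105 and 729.7 in PBS and 1217, 1090.5 and 1069 in PE. The groups of control cells did not overlap, and PBS knockdown replicate 2, a distant library, lay among the PE libraries. PE raised Smad7 by 115% in control cells, a log2 change of 1.11 ± 0.14 (limma, adjusted p = 6.79e-06). In knockdown cells PE raised Smad7 by 35.2%, a log2 change of 0.47 ± 0.14 (limma, adjusted p = 0.0168), which was called in 18 of 23 alternatives. This call was lost on the scale of equal totals, with only the libraries compared, and without PBS knockdown replicate 1 or 3 or PE knockdown replicate 1 (adjusted p over all alternatives up to 0.0965). Without the 3 distant libraries the change was 0.63 (adjusted p = 2.35e-06).

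With the knockdown in PBS, the difference of Smad7 was 0.49 ± 0.14 on the log2 scale (limma, adjusted p = 0.0527), with all PBS knockdown libraries above all PBS control libraries. Smad7 was called higher in 7 of 23 alternatives, among them DESeq2 (0.53, adjusted p = 0.0133) and the scale of equal totals (0.56, adjusted p = 0.0278 in limma). Leaving out single libraries gave 0.27 to 0.64, the call appearing without PBS knockdown replicate 1 or PE knockdown replicate 1, and leaving out the 3 distant libraries gave 0.20 (limma, adjusted p = 0.162). In PE it was -0.15 ± 0.14 (limma, adjusted p = 0.604). The interaction for Smad7 was -0.64 ± 0.20 (limma, adjusted p = 0.326), and -0.41 without the 3 distant libraries (adjusted p = 0.108).

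Smad2 and Smad3, the Smads that carry the signal, were called in none of the comparisons. Smad2 (ENSMUSG00000024563.17, chromosome 18, 76241580 to 76310963, plus strand) was at 1519 to 1549.8 in PBS control, 1301 to 1527 in PE control, 1358.5 to 1610.2 in PBS knockdown and 1569 to 1655 in PE knockdown. Its log2 differences lay between -0.11 and 0.18 in the 4 comparisons, with limma adjusted p from 0.293 to 0.96. Smad3 (ENSMUSG00000032402.13, chromosome 9, 63646767 to 63757994, minus strand) was at 1701 to 1784 in PBS control, 1713 to 1724 in PE control, 1389 to 1922 in PBS knockdown and 1339 to 1420.4 in PE knockdown. PE gave Smad3 a log2 difference of -0.01 ± 0.10 in control cells and -0.21 ± 0.10 in knockdown cells (limma, adjusted p = 0.952 and 0.155). All PE knockdown libraries were below all PE control libraries, by -0.31 ± 0.10 (limma, adjusted p = 0.0604), and without the 3 distant libraries Smad3 was called lower, at -0.33 (adjusted p = 0.00164). Smad3 was called in 6 of 23 alternatives of that comparison, among them DESeq2 (-0.31, adjusted p = 0.0357). In PBS the knockdown gave Smad3 a difference of -0.12 ± 0.10 (limma, adjusted p = 0.623).

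Per kb of exon Smad3 was the highest of the 3 Smads in PBS control, with 313 ± 7.79 normalised counts, followed by Smad2 with 175 ± 1.80 and Smad7 with 128 ± 9.97. In PE control Smad7 was at 275 ± 5.79 per kb, above Smad2 at 163 ± 13.1 and below Smad3 at 310.3 ± 1.07, with no overlap between them. In PE knockdown the levels per kb of Smad3, 242 to 256, and of Smad7, 236.5 to 269, overlapped. The share of the inhibitory Smad7 in the sum of these 3 genes was 20.7% ± 1.23 in PBS control, 36.8% ± 1.06 in PE control, 28.0% ± 4.16 in PBS knockdown and 36.5% ± 1.24 in PE knockdown.

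Genes that share exonic bases with the members had far lower counts. Exonic overlap was found for Tgfb2 with Gm29491, for Tgfb3 with Gm37804 and Gm48008 and for Tgfbr3 with Gm43422, over 124 to 297 bases. These genes had mean counts of 0.910 to 2.42, against means of 2270, 2040 and 693 for Tgfb2, Tgfb3 and Tgfbr3.

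Other genes of the pathway were counted in 4 lists, of which all 87 genes were tested. Of all genes tested, PE raised 12.6% and lowered 12.8% in control cells, and raised 13.4% and lowered 14% in knockdown cells. The knockdown lowered 7.14% in PE and 3.21% in PBS, and raised 4.57% and 1.36%. At a mean count of at least 50, it lowered 42.9% in PE of genes spanning at least 100 kb, and 6.78% of shorter genes. The part of gene length in the list counts was not tested. For the knockdown in PE, 9 of 18 genes of ligand latency and activation fell and 0 rose, with a median log2 change of -0.38. They included Itgb8 and Itgb3, integrin subunits of receptors that can free latent TGF-beta, at -0.76 ± 0.15 and -0.73 ± 0.13 (limma, adjusted p = 0.00236 and 0.000532). Thbs1, which encodes thrombospondin-1, a secreted activator of latent TGF-beta, fell by 0.61 on the log2 scale (limma, adjusted p = 0.000503). Lrrc32, which anchors latent TGF-beta at the cell surface, fell by 0.58 (limma, adjusted p = 0.0149), a call lost without PE control replicate 1 or 3 or PE knockdown replicate 2 or 3 (adjusted p up to 0.0909). Thbs1 counts were 34277 ± 2757 in PE control and 22382 ± 619 in PE knockdown, and 5769 ± 349 and 5004 ± 503 in the PBS groups. For the knockdown in PBS, 1 of the 18 fell and 0 rose. An unadjusted p of 0.05 was passed there by 5 of the 18 and by 3819 of all 21799 genes. Itgb3 fell by 0.74 (limma, adjusted p = 0.00124), and the median was -0.09. DESeq2 called 9 lower and 0 higher in PE and 1 lower and 0 higher in PBS. On the scale of equal totals 7 fell in PE, with a median of -0.29, and 1 fell in PBS, with a median of -0.03. With the 3 distant libraries left out 13 fell in PE and 6 in PBS. Calls over all genes also grew then, from 2553 to 4672 in PE and from 997 to 1865 in PBS.

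PE moved the latency list in both directions. In control cells 7 of 18 rose and 6 fell, with a median of 0.10, and the same split was found without the 3 distant libraries. Thbs1 rose by 2.57 ± 0.10 and Ltbp2, a matrix relative of Ltbp1, by 2.45 ± 0.13 on the log2 scale (limma, adjusted p = 2.17e-12 and 7.48e-11). Itgb8 fell by 1.46 and Emilin1, a matrix protein known to restrain TGF-beta maturation, fell by 1.22 (limma, adjusted p = 7.12e-07 and 3.87e-07). In knockdown cells 5 rose and 6 fell, with a median of -0.03. The same 4 genes had changes of 2.17, 1.97, -1.78 and -1.73 there.

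Of 26 receptor partners, Smad partners and inhibitors, 9 rose and 2 fell with PE in control cells, with a median of 0.13. On the scale of equal totals 4 rose and 4 fell and the median was -0.02. Skil, a Smad corepressor, rose by 0.89, Pmepa1, which binds Smad2 and Smad3 away from the receptor, by 0.91, and the ubiquitin ligase Smurf2 by 0.72 on the log2 scale (limma, adjusted p = 1.59e-06, 1.9e-05 and 7.07e-06). The deubiquitinase Usp11 fell by 1.03 (limma, adjusted p = 1.19e-06). In knockdown cells 8 rose and 2 fell with PE, with a median of 0.03, or 5 rose and 7 fell on the scale of equal totals, with a median of -0.11. Skil and Pmepa1 again rose, by 0.76 and 0.66, and so did Fkbp1a, an inhibitor that binds the type I receptor, by 0.69.

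The knockdown lowered Smad6 most in that list. Smad6 is an inhibitory Smad like Smad7, known above all from the BMP branch. Smad6 was at 1532.5 ± 169 in PBS control and 522 ± 132 in PBS knockdown, and at 1427 ± 93.8 in PE control and 381.5 ± 17.7 in PE knockdown. Its log2 changes were -1.90 in PE and -1.58 in PBS (limma, adjusted p = 2.03e-08 and 5.36e-07), whereas Smad7 was called in neither. Smurf2, which partners Smad7 in receptor turnover, had log2 changes of -0.97 in PE and -0.65 in PBS (limma, adjusted p = 6.49e-07 and 0.000203). Bambi, a decoy receptor, rose by 0.65 in PBS (limma, adjusted p = 0.000814) and was also called higher in PE. In all, 1 of the 26 rose and 5 fell in PE, with a median of -0.07, and 1 rose and 3 fell in PBS, with a median of -0.01. On the scale of equal totals 2 rose and 4 fell in PE, where the median was 0.01, and the median in PBS was 0.06. With the 3 distant libraries left out 2 rose and 11 fell in PE.

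The activin branch shares Smad2 and Smad3 with TGF-beta. Of its 11 genes, 5 rose and 0 fell with PE in control cells, with a median of -0.01, or 3 rose and 1 fell on the scale of equal totals, where the median was -0.17. Leaving out the 3 distant libraries gave a median of 0.25. Inhba, the activin A subunit, rose from 599 ± 67.8 to 3364 ± 190, by 2.49 on the log2 scale (limma, adjusted p = 7.62e-12), and Fst, the activin-binding protein follistatin, rose by 1.19 (adjusted p = 0.000198). In knockdown cells 4 rose and 2 fell, with a median of 0.29, or 4 rose and 3 fell on the scale of equal totals, and Inhba rose by 1.90 (limma, adjusted p = 3.57e-10). The knockdown in PE lowered 2 of the 11 and raised 0, with a median of -0.14. These were Acvr1b, the type I activin receptor, at -0.50, and Inhba at -0.37 (limma, adjusted p = 0.00833 and 0.0386). The call of Inhba held in 16 of 23 alternatives and was lost with no filter, on the scale of equal totals and without PE control replicate 1, 2 or 3 or PE knockdown replicate 2 or 3 (adjusted p up to 0.17), and that of Acvr1b was lost without PE control replicate 2. The knockdown in PBS changed 0 of the 11 in limma and in DESeq2, with a median of -0.05, and 0.02 on the scale of equal totals. An unadjusted p of 0.05 was passed there by 0 of the 11 and by 3819 of all 21799 genes.

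Of 32 genes known to respond to TGF-beta in various cells, 12 rose and 7 fell with PE in control cells, with a median of 0.06, or 11 rose and 10 fell on the scale of equal totals, with a median of -0.10. Tnc, the matrix protein tenascin-C, rose from 1907 ± 57.6 to 11452 ± 954, by 2.58 on the log2 scale (limma, adjusted p = 9.89e-13), and Ccn2, connective tissue growth factor, rose by 2.36 and Cnn1, a smooth muscle actin-binding protein, by 2.32. The 7 that fell included the collagen Col3a1, elastin Eln and the transcription factor Snai1, so the list did not move in 1 direction. Acta2, Cnn1, Col1a1, Col1a2 and Postn of this list also served as cell markers above, as did Dcn of the latency list. In knockdown cells 12 rose and 11 fell, with a median of -0.03, and Cnn1 rose by 2.13 and Tnc by 1.91, while Col3a1 fell by 2.18.

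The knockdown in PE lowered 9 of the 32 and raised 0, with a median of -0.28. On the scale of equal totals 8 fell, with a median of -0.19. Without the 3 distant libraries 16 fell, where calls over all genes grew from 2553 to 4672. Adam12, a metalloprotease, was at 1128.5 ± 62.1 in PE control and 509 ± 77.1 in PE knockdown and fell by 1.16 on the log2 scale (limma, adjusted p = 1.23e-06). Ccn2 was lower at -0.70 and the collagen Col5a1 at -0.56 (limma, adjusted p = 3.55e-05 and 0.00982), and the call of Col5a1 was lost without PE control replicate 1 (adjusted p = 0.0684). In PBS the knockdown lowered 3 and raised 0, with a median of -0.12. These were Adam12 at -1.03, Eln at -0.74 and Tgfbi, a secreted matrix protein, at -0.48 (limma, adjusted p = 1.46e-05, 0.00173 and 0.00649). On the scale of equal totals 3 fell in PBS, with a median of -0.06. With the 3 distant libraries left out 8 fell and 1 rose in PBS. The interaction was called in limma for 0 genes of the 4 lists. Its unadjusted p was at most 0.05 for 4 of 18 latency genes and 3 of 26 partners. The same held for 1 of 11 activin genes, 5 of 32 responsive genes and 2143 of all 21799 genes. DESeq2 called the interaction for 3 responsive genes and for 0 of the other lists, and for 124 genes in all, against 12 in limma.

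**Figure D4:**
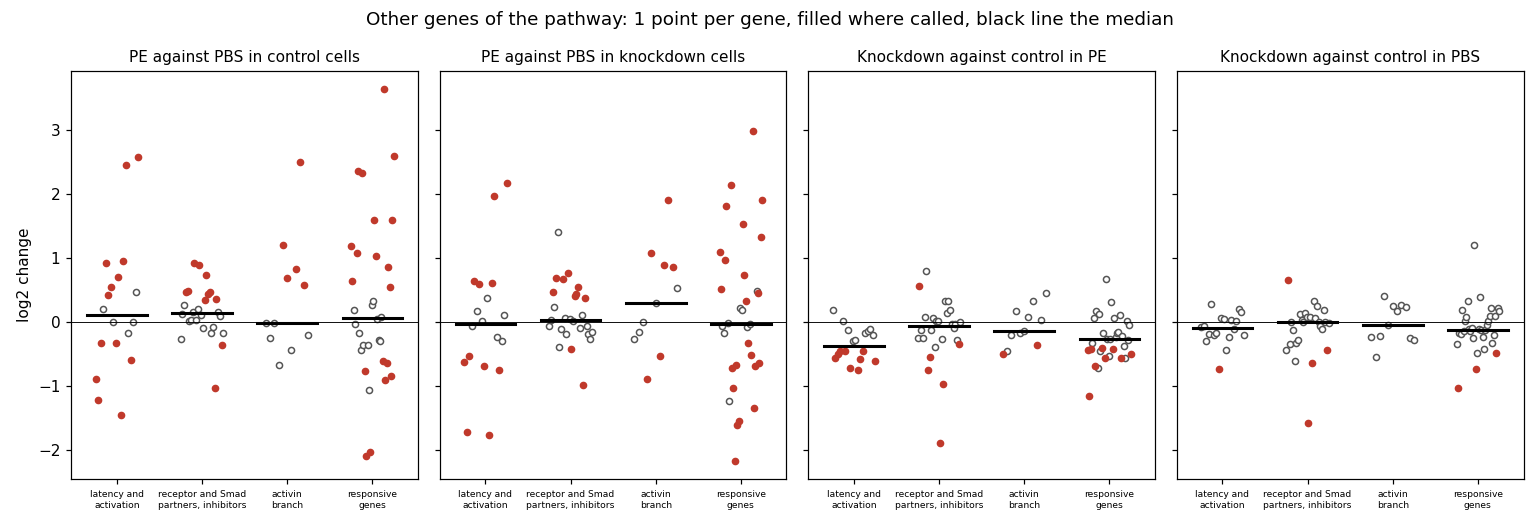
The log2 change (y axis) of each gene of 4 lists in 4 comparisons, with 1 point per gene, filled where called, and a line at the median of each list. The called genes lie on both sides of 0 for PE, and for the knockdown in PE the called genes of the latency list (9 of 18) and of the responsive genes (9 of 32) all lie below 0.

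The genes whose levels ran most like each called member over the 12 libraries, by Pearson correlation of log2 levels among 11611 genes, are given as a description without a test, since the libraries share groups and depth. For Tgfb3 they were Map3k20, a stress-activated kinase (r = 0.9901), and Atxn1, the ataxin-1 gene (r = 0.9895). Atxn1 was at 729.9 ± 62.4 in PBS control, 992 ± 65.9 in PE control, 540.2 ± 24.7 in PBS knockdown and 499 ± 33.2 in PE knockdown, the order of groups also seen for Tgfb3. For Tgfb2 the closest were Enah, an actin regulator, and Tnfrsf23 (r = 0.9897 and 0.9871), and Enah was at 5297 ± 522, 10563 ± 349, 4347 ± 27.04 and 8090.3 ± 1148 in the same groups. For Ltbp1 they were Cluh, which binds messenger RNAs of mitochondrial proteins, and Ctif (r = 0.9904 and 0.9872). Cluh was at 10252 ± 289, 10824 ± 834, 6822 ± 1305.5 and 5119 ± 93.7. For Tgfbr3 they were Fndc1 and Dop1b (r = 0.9901 and 0.9890), for Tgfbr2 Mbtps1, the site-1 protease, and Hmcn1 (r = 0.9908 for both), and for Smad7 Unc5b, a netrin receptor, and Tsc22d2 (r = 0.9841 and 0.9828).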

How the data were processed

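The study gave 12 paired-end RNA-seq libraries in 4 groups of 3. Per the submitters' processing notes, STAR, SAMtools and featureCounts were used with GRCm38.p6. Their versions, the annotation release and strandedness are not stated there. For 55416 genes the authors deposited a signal, namely read counts divided by a size factor per library (0.921 to 1.11). Multiplying by it gave back whole reads for 100% of values in every library (tolerance 0.001). The table has 0 columns of no sample.

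Symbols of 52083 genes came from GENCODE release M21. Genes with a mean of at least 1 (21799) were fitted with limma 3.58.1 (trended prior, two-sided, Benjamini-Hochberg adjustment at 0.05) on log2(value + 1), with 4 group means and no covariates. The fold change on this scale slightly understates changes of low genes. The members, gene lists, markers, tests and the set of 3 distant libraries were chosen with earlier results of these data known, so no list is independent evidence. Of each list, up to 4 called genes per comparison with the largest change and a mean of at least 10 are given with values, and for likeness the 2 closest named genes with a mean of at least 50. Values of 1 gene that this rule picks are not reported here.

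Alternatives were a pseudocount of 0.1, no filter, a filter of 1 CPM or more in 3 libraries, recovered reads in edgeR 4.0.16 with the deposited factors or TMM, DESeq2 1.42.0, limma-voom, equal totals, only the libraries compared, a replicate block, each library left out and the 3 distant libraries left out. The fit was tested on simulated data. Replicate numbers were not treated as pairs. With 3 libraries a group, only differences larger than their spread can be called. Promoter windows came from a RefSeq table of GRCm38.p6.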

Additional observations from a re-analysis of the deposited data

How the results depend on the processing

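Over 1140 results of single members under an alternative, 1050 kept their direction and side of the threshold, 37 passed it only under the alternative, 28 lost it and 25 turned direction. Tgfb2, Tgfb3, Tgfbr2, Tgfbr3 and Smad7 for PE in control cells, Tgfb2, Tgfbr2 and Tgfbr3 for PE in knockdown cells, and Tgfb3, Tgfbr3 and Ltbp1 for the knockdown in PE were called in all 23 alternatives. The number of members called for PE in knockdown cells was 5, and 3 with only the libraries compared. For the knockdown in PE it was 3, and 6 with the 3 distant libraries left out (4672 genes called in all, against 2553). For the knockdown in PBS it was 2, 4 with the CPM filter, 4 with DESeq2, 0 with only the libraries compared and 4 with the 3 distant libraries left out. For the interaction it was 0, 1 with DESeq2 (124 genes called in all, against 12) and 1 with the 3 distant libraries left out (143 genes in all). Leaving out single libraries gave 3 to 5 members for PE in knockdown cells (3 without PBS knockdown replicate 3) and 0 to 4 for the knockdown in PBS. That count was 0 without PBS control replicate 2, 1 without PBS control replicate 1 or 3 or PBS knockdown replicate 3, and 4 without PE knockdown replicate 1. With 2 libraries left in a group, limma assumes that they vary like the other groups.

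Results that turned direction were uncalled in limma and under the alternative. On equal totals the log2 difference was -0.071 for Ltbp1 (PE in control cells), -0.060 for Smad2 (PE in knockdown cells) and 0.052 for Smad2 (knockdown in PBS). With edgeR and TMM, Tgfbr1 was at -0.0026 for the knockdown in PE. Without the 3 distant libraries the values were -0.020 for Smad2 (PE in knockdown cells), -0.019 for Tgfbr1 (knockdown in PE), -0.0030 for Tgfb1 and 0.068 for Smad2 (knockdown in PBS), and -0.20 for Tgfb2 and 0.040 for Tgfbr2 (interaction). Leaving out single libraries gave -0.027 to 0.0073 for Smad3 (PE in control cells), -0.17 to 0.039 for Tgfbr1 (PE in knockdown cells), -0.065 to 0.092 for Tgfbr1 (knockdown in PE), -0.12 to 0.16 for Tgfb1 and -0.057 to 0.066 for Smad2 (knockdown in PBS), and -0.30 to 0.0041 for Tgfb1 and -0.090 to 0.16 for Tgfb2 (interaction). The cause was not tested.

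With a replicate block, the members called were 5 for PE in control cells, 4 for PE in knockdown cells, 3 for the knockdown in PE, 2 for that in PBS and 0 for the interaction, the call lost being Ltbp1 for PE in knockdown cells. Over all genes the replicate block called 5171, 5708, 2269, 822 and 12 genes, against 5543, 5967, 2553, 997 and 12 without it. Residuals of libraries with the same number correlated between -0.435 and 0.409, and 3 of 12 libraries correlated best with a library of their own number.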
